A study of Mus musculus with 2 samples.

Results

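The genes of the proteasome were examined in primary mouse hepatocytes from control and CCl4-injected mice. They were taken as every gene of the mRNA table whose symbol begins with Psm, a letter from a to g and a number, with the transcript of highest mean abundance standing for a gene. The rule found 50 genes (53 transcripts) among 20317 genes with a symbol. Of these, 48 had a listed value in both libraries. Psma8, a testis form of an alpha subunit, and Psmb11, the thymus form of a catalytic subunit, were listed at 0 in both. The rule also took in Psmc3ip and Psme3ip1, which are not proteasome parts. The first is a partner in meiotic recombination and the second an interaction partner of Psme3. They are given apart.

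The data were 2 RNA-seq libraries of hepatocytes from wild-type male C57BL/6J mice, 1 from oil-injected mice and 1 from mice that received a 20% CCl4 solution in mineral oil at 2.5 ml CCl4 per kilogram, 2 times a week. The mice were 5 weeks old when obtained. The labels give 8 weeks of injection, whereas the methods give 4 weeks. Cells were freed by pronase and collagenase perfusion and density gradient centrifugation, and how many mice stand behind each library is not given in the sources used here. CCl4 is a solvent that hepatocytes convert to a toxic radical, and repeated doses cause fibrosis. The comparison made here is of proteasome RNA in hepatocytes of CCl4-injected and control liver. With 1 library per condition no difference has a replicate check, no p-value is given, and the treatment cannot be told apart from the preparation.

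The 26S proteasome is the barrel-shaped protease that destroys proteins tagged with ubiquitin. Its 20S core is made of outer alpha rings, which gate the entrance, and inner beta rings, of which Psmb5, Psmb6 and Psmb7 carry the constitutive active sites. The 19S regulatory particle caps the core: its Psmc subunits are ATPases that unfold the substrate, and its Psmd subunits bind ubiquitin, remove it and hold the particle together. Under interferon-gamma, and at rest in many immune cells, new cores take up Psmb8, Psmb9 and Psmb10 in place of Psmb5, Psmb6 and Psmb7. This immunoproteasome favors peptides that fit MHC class I molecules.

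The stretches before the start sites of Psmb5 and of the 3 immunoproteasome genes are shown, because the results turn on the ratio between these kinds of subunit. They are RefSeq sequences of GRCm38.p6 (mm10), read 5′ to 3′ on the strand of the gene and ending at the base before the start. They lie at chr14:54617996-54618245 (Psmb5, minus strand), chr17:34197945-34198194 (Psmb8, plus strand), chr17:34187331-34187555 (Psmb9, minus strand) and chr8:105938393-105938642 (Psmb10, minus strand). Capitals mark matches to the 4 motifs described with the promoters below.
Psmb5: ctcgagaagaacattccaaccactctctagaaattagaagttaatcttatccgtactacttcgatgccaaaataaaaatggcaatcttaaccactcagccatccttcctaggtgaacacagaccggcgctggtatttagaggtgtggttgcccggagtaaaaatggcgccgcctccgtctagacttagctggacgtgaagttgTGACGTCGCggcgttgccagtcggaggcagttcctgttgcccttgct
Psmb8: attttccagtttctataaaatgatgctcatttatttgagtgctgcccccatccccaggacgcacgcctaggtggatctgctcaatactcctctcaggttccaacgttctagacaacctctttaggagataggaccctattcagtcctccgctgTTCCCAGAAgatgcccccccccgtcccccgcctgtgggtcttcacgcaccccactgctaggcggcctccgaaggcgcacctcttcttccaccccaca
Psmb9: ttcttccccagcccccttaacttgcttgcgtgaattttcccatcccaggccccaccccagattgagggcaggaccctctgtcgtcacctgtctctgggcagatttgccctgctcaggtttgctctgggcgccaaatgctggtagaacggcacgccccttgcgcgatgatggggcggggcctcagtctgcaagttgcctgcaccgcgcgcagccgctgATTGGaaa
Psmb10: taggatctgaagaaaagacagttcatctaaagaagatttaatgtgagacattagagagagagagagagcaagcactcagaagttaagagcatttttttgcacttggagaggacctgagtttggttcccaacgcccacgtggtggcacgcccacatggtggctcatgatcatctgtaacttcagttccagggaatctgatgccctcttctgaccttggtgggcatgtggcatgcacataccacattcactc

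Values are RPKM, reads scaled to the length of the transcript and to the depth of the library, as the authors deposited them. In these tables any value under 1 RPKM was listed as 0. Fold changes are log2 of CCl4 over oil with 0.1 RPKM added to both, and they cover the 10689 genes listed above 0 in both libraries. Because RPKM of short RNAs come in steps of whole reads, the depth could be read off them. It was about 58000000 reads for oil and 64700000 reads for CCl4. The ranges given with a log2 fold change are 95% intervals for counting error alone. They rest on the fewest reads that the RPKM values allow, so they are wide, and they hold nothing of the variation between mice. The median gene had a log2 fold change of 0.30 on this scale, and the middle 50% of genes lay between -0.15 and 0.70. The 10 hepatocyte marker genes were all lower in CCl4, with a summed 19965 RPKM in oil and 10751 in CCl4. All markers of stellate cells and myofibroblasts with a value in both libraries (9 of 10) were higher, summing to 80.5 and 894 RPKM over the list, and Pdgfrb was listed at 0 in oil and at 16.8 RPKM in CCl4. In such bulk RNA, fewer cells of a type and less RNA per cell cannot be told apart.

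Constitutive proteasome RNA was lower in the CCl4 library in the median of every layer of the particle. Each of the 31 constitutive subunits of the 20S core and the 19S particle found by the name rule had less RPKM in CCl4 than in oil on the deposited scale, and 27 of the 31 did when both libraries were brought to the same summed mRNA RPKM. Sem1, a 19S subunit with another kind of symbol, was higher on the deposited scale (0.30, from 0.22 to 0.38) but not when scaled to the median gene. The median log2 fold change was -0.41 and the range from -0.67 to -0.09. The counting interval lay below 0 for 29 of them, the exceptions being Psmd3 and Psmd8, as it did for 22.1% of all genes and 37.5% of those that averaged 10 RPKM or more. Their summed level was 1358 RPKM in the oil and 1037 in the CCl4 library. The differences were small. None of the 48 members reached a log2 fold change of 1 in either direction, a size that 19.8% of all genes compared had (14.3% higher and 5.48% lower). At 1.5-fold on the deposited scale, 5 members were lower (Psma3, Psmb7, Psmc2, Psmd12 and Psmd14) and none was higher, against 12.0% and 31.5% of all genes. This count depended on the scaling. Scaled to the median gene, the median constitutive subunit (-0.71) was itself lower by more than 1.5-fold, and no member was higher by it. Scaled to the summed mRNA RPKM, no member was lower by 1.5-fold (Psmd12, the lowest, was at -0.45). Psmb8 (0.61), Psmb9 (0.69), Psmg4 (0.71) and Psmc3ip (0.70) were then higher by it. On the deposited scale, over all members 38 of 48 were below 0 and 10 above it, compared with 32.4% and 67.6% of all genes. Abundant genes as a whole lay lower. Where the 2 libraries averaged 10 RPKM or more, 33 of 39 members and 44.4% of genes were below 0, and 5 of 39 members and 21.0% of genes were lower by 1.5-fold. The direction alone was counted after the values had been seen.

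**Figure D1:**
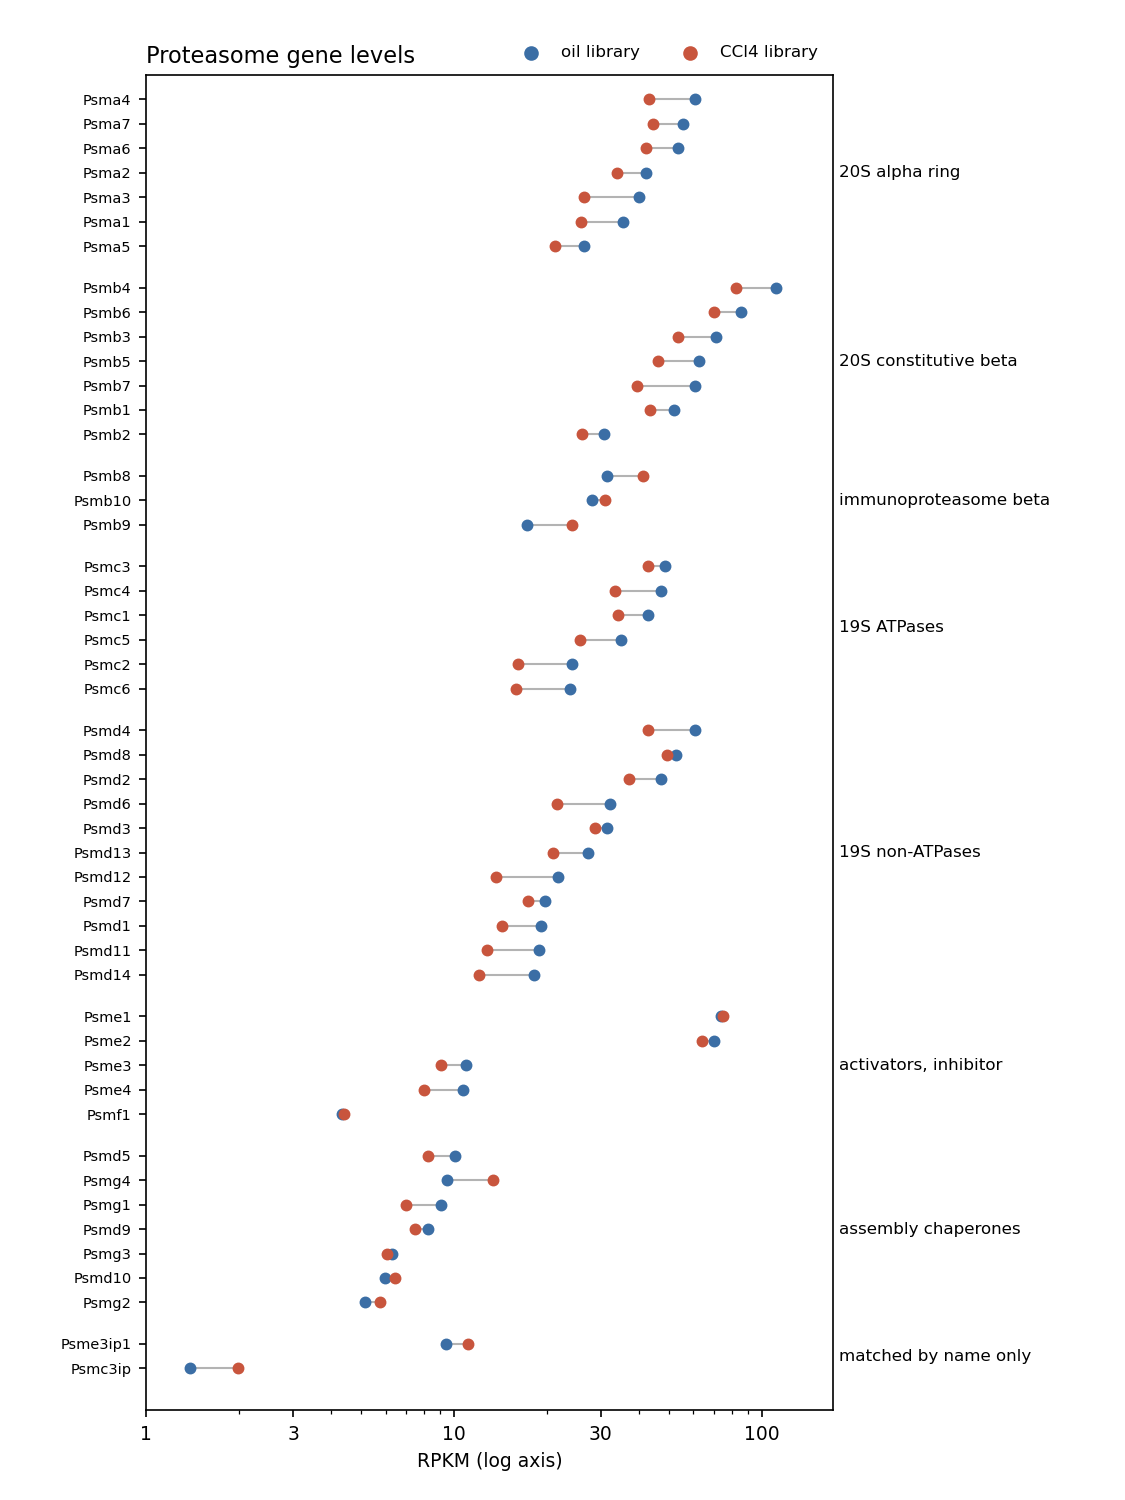
RPKM (log axis) of the 48 proteasome genes listed in both libraries, blue for the oil and red for the CCl4 library, with a line joining the 2 values of a gene and the genes grouped by role. All 31 constitutive 20S and 19S subunits have the red point to the left of the blue one (27 would, scaled to the summed mRNA RPKM), and Psmb8, Psmb9 and Psmb10 have it to the right (Psmb10 would not, scaled to the median gene).

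The outer ring of the core is formed by Psma1 to Psma7. Psma4 was the most abundant in oil, at 60.9 RPKM in oil and 43.0 in CCl4. Psma5 was the least abundant in both libraries, at 26.5 RPKM in oil and 21.3 in CCl4. All 7 alpha genes were lower in CCl4, and their levels spanned 2.30-fold in oil and 2.08-fold in CCl4. The largest difference was that of Psma3, at 39.95 RPKM in oil and 26.4 in CCl4, with a log2 fold change of -0.60 (-0.71 to -0.49). Psma4 (-0.50) and Psma1 (-0.46) came next. Psma2, Psma5, Psma6 and Psma7 lay close together, between -0.34 and -0.31. The median of the ring was -0.34.

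The inner ring had the most abundant RNA of all members. Psmb4, a beta subunit without an active site, was at 111 RPKM in oil and 82.3 in CCl4, which ranked it 446th and 507th among the genes with a symbol. All 7 constitutive beta genes were lower in CCl4, with a median of -0.41. The 3 that carry active sites were among them. Psmb7, the trypsin-like subunit, was at 60.8 RPKM in oil and 39.4 in CCl4. Its log2 fold change of -0.62 (-0.71 to -0.54) was the lowest of the core. Psmb5, the chymotrypsin-like subunit and the target of bortezomib, was at 62.7 RPKM in oil and 46.2 in CCl4, with -0.44 (-0.56 to -0.32). Psmb6, the caspase-like subunit, was at 85.7 RPKM in oil and 69.8 in CCl4, with -0.30 (-0.37 to -0.22). The smallest difference of the ring was that of Psmb2, at 30.6 RPKM in oil and 26.1 in CCl4. Its log2 fold change was -0.23 (-0.39 to -0.07). The annotation also lists pseudogenes named after Psma5, Psmb5, Psmb6 and Psmb7, and how reads shared with such copies were counted is not given in the sources used here.

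The 3 immunoproteasome genes went the other way. Psmb8 (chr17:34198195-34201454), which takes the place of Psmb5, was at 31.3 RPKM in oil and 41.2 in CCl4. Its log2 fold change was 0.40 (0.28 to 0.51). Psmb9 (chr17:34182030-34187330), which takes the place of Psmb6, was at 17.2 RPKM in oil and 24.1 in CCl4, with 0.48 (0.27 to 0.70). Psmb10 (chr8:105935728-105938392), which takes the place of Psmb7, was at 28.0 RPKM in oil and 30.9 in CCl4, with 0.14 (0.06 to 0.23). All 3 were higher in CCl4 on the deposited scale, but with the libraries scaled to the median gene their values were 0.09 (Psmb8), 0.18 (Psmb9) and -0.16 (Psmb10). Among all genes compared, 56.5% had a lower fold change than Psmb8, 62.0% a lower one than Psmb9 and 40.4% a lower one than Psmb10. The immunoproteasome genes thus lay near the middle of all genes. The constitutive subunits lay low, with between 10.3% and 27.8% of genes below them.

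**Figure D2:**
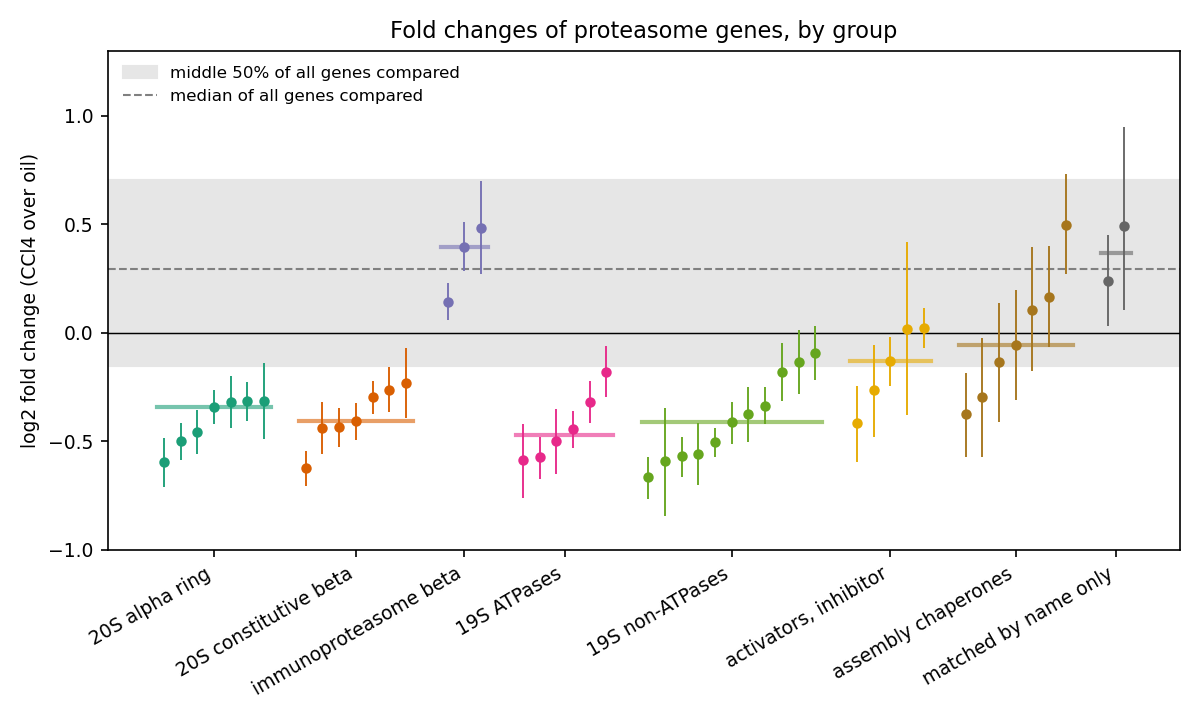
Log2 fold change (CCl4 over oil, 0.1 RPKM added) of each member, by role. Vertical lines are 95% intervals for counting error only, thick bars are group medians, the gray band holds the middle 50% of all 10689 genes compared and the dashed line is their median (0.30). The 4 constitutive groups lie below 0 with medians from -0.47 to -0.34 (4 of their 31 genes would lie above 0, scaled to the summed mRNA RPKM), while the immunoproteasome genes sit inside the gray band.

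The ratio of an immunoproteasome subunit to its constitutive counterpart within a library does not depend on how the libraries are scaled. RPKM is per length, so these levels can be set against each other. Psmb8 stood at 0.50 of Psmb5 in oil and at 0.892 in CCl4, a 1.79-fold higher ratio (95% counting interval 1.6 to 2.0). Psmb9 stood at 0.201 of Psmb6 in oil and at 0.346 in CCl4, a 1.72-fold higher ratio (1.47 to 2.0). Psmb10 stood at 0.460 of Psmb7 in oil and at 0.785 in CCl4, a 1.70-fold higher ratio (1.57 to 1.85). The intervals of the 3 pairs overlap. The immunoproteasome genes made up 26.8% of the RPKM of the 6 catalytic subunits in oil and 38.3% in CCl4. In every pair the constitutive RNA was the more abundant one in both libraries. On the deposited scale a lower constitutive and a higher immunoproteasome value both entered each ratio, whereas with scaling to the median gene Psmb10 was lower too, by less than Psmb7.

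**Figure D3:**
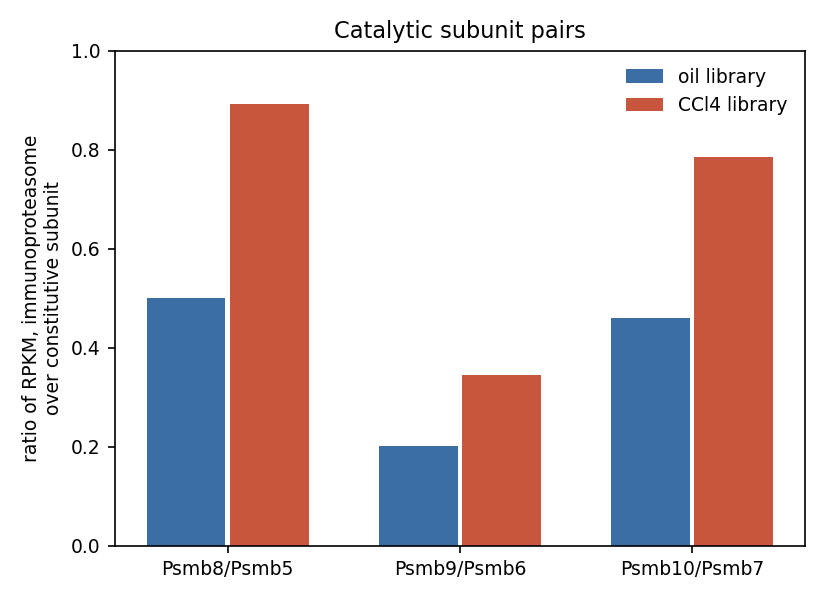
Ratio of RPKM between each immunoproteasome subunit and the constitutive subunit it replaces, in the oil (blue) and the CCl4 library (red), from 1 library each. The ratio is higher in CCl4 in all 3 pairs and stays below 1.

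Immunoproteasome genes are expressed by macrophages, lymphocytes and dendritic cells, and markers of these and of endothelial cells are given here. As deposited, the median log2 fold change was 0.40 over the 3 immunoproteasome genes and 0.30 over all genes. It was 1.13 over the macrophage markers, 0.82 over the lymphocyte and dendritic cell markers and 0.74 over the sinusoidal endothelial markers. On the deposited scale 67.6% of all genes were higher in CCl4. Over the Kupffer cell and macrophage markers, 8 of the 9 compared were higher, and the list summed to 1345 RPKM in oil and 3650 in CCl4. Marco was at 42.3 and 278 RPKM and Clec4f, the marker most particular to Kupffer cells, at 283 and 255 RPKM in oil and CCl4. Over the lymphocyte and dendritic cell markers, 4 of the 7 compared were higher and the list summed to 149 RPKM in oil and 334 in CCl4, of which Cd74 made up 123 and 283 RPKM. Ptprc, the pan-leukocyte marker, was at 13.0 RPKM in oil and 23.0 in CCl4. The T cell and natural killer cell markers Cd3g (-0.62), Nkg7 (-0.66) and Lck (-0.16) were lower in CCl4, and Cd3e, a defining T cell marker, was listed at 0 in both libraries. Over the sinusoidal endothelial markers, all 10 were higher, with 608 and 1043 RPKM in sum. The part of these cells in the immunoproteasome values was not tested.

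The ATPase ring of the 19S particle was lower in all 6 subunits, Psmc1 to Psmc6, with a median of -0.47 (Psmc3 alone was above 0 when scaled to the summed mRNA RPKM). Psmc3 was the most abundant, at 48.5 RPKM in oil and 42.8 in CCl4, and had the smallest difference (-0.18, from -0.30 to -0.06). Psmc2, at 24.2 RPKM in oil and 16.1 in CCl4, and Psmc6, at 23.8 in oil and 15.9 in CCl4, were the least abundant. They had the largest differences, of -0.59 and -0.57. Psmc4 was at -0.50, Psmc5 at -0.44 and Psmc1 at -0.32. The span of levels within the ring was 2.04-fold in oil and 2.69-fold in CCl4.

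The 11 non-ATPase subunits were all lower too, with a median of -0.41 (8 of 11 when scaled to the summed mRNA RPKM), and their SD over genes, 0.20, was the largest of the 4 constitutive groups. Psmd12, a scaffold of the lid, was at 21.8 RPKM in oil and 13.7 in CCl4. Its log2 fold change of -0.67 (-0.77 to -0.57) was the lowest of all members. Psmd14, the metalloprotease that cuts ubiquitin chains off the substrate, was at 18.2 RPKM in oil and 12.0 in CCl4, with -0.59 (-0.84 to -0.35). Psmd7, the inactive partner with which Psmd14 forms a dimer, was at 19.7 RPKM in oil and 17.4 in CCl4, with -0.18 (-0.32 to -0.05). The partners thus had almost equal levels in oil, while Psmd7 stood above Psmd14 in CCl4. Psmd4, which binds ubiquitin chains, was the most abundant in oil at 60.8 RPKM and stood at 42.9 in CCl4, with -0.50 (-0.57 to -0.44). The lid subunits Psmd6 (-0.57) and Psmd11 (-0.56) were close to Psmd12. Psmd1 and Psmd2, the large scaffolds of the base, were at -0.41 and -0.34, and Psmd13 was at -0.38. The smallest differences were those of Psmd3 (-0.14, from -0.28 to 0.01) and Psmd8 (-0.09, from -0.22 to 0.03), which was at 52.6 RPKM in oil and 49.4 in CCl4.

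Although the subunits enter the particle in fixed numbers, their RNA levels spanned 6.13-fold in oil and 6.84-fold in CCl4. The order of the 31 constitutive subunits was nearly kept between libraries, with a Spearman rho of 0.963 and a Pearson r of 0.978 on the log2 scale. This is a description over 31 genes of 2 libraries that share the gene lengths and the counting. The standard deviation of the log2 fold change over these 31 subunits was 0.15, against 0.81 over all genes compared. The counting interval of the median subunit reached 0.10 to either side.

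The regulators that bind the core in place of the 19S particle, and the inhibitor Psmf1, gave a mixed picture. Psme1 and Psme2 form PA28, an activator that interferon-gamma raises along with the immunoproteasome. Psme1 was at 73.6 RPKM in oil and 74.7 in CCl4, with a log2 fold change of 0.02 (-0.07 to 0.12). Psme2 was at 70.1 RPKM in oil and 64.0 in CCl4, with -0.13 (-0.24 to -0.02). Another listed transcript of Psme2 gave the same log2 fold change, and the near-identical copy Psme2b can share its reads. Psme3, the nuclear activator, was at 10.9 RPKM in oil and 9.08 in CCl4 (-0.27, from -0.48 to -0.06). Psme4, which makes up PA200, was at 10.7 RPKM in oil and 8.01 in CCl4 (-0.42, from -0.60 to -0.25). Psmf1 was at 4.34 RPKM in oil and 4.4 in CCl4 (0.02, from -0.38 to 0.42). PA28 levels thus lay within the range of the core subunits in both libraries, and the counting intervals of Psme1 and Psme2 lay below those of Psmb8 and Psmb9, while that of Psme1 overlapped that of Psmb10. Scaled to the median gene all 5 of this group were below 0, and scaled to the summed mRNA RPKM 3 of 5, Psme1, Psme2 and Psmf1, were above it.

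The chaperones that assemble the core and the base are not part of the finished particle, and their RNA was scarce, between 5.13 and 10.1 RPKM in oil. Their fold changes were scattered around a median of -0.06, with 3 of 7 higher (Psmg4 alone when scaled to the median gene, and 5 of 7 when scaled to the summed mRNA RPKM). Psmg1, which helps to build the alpha ring as a pair with Psmg2, was at 9.09 RPKM in oil and 6.99 in CCl4 (-0.37, from -0.57 to -0.18). Psmg2 was at 5.13 RPKM in oil and 5.75 in CCl4 (0.16, from -0.07 to 0.40). Psmg3, of the other pair of alpha ring chaperones, was at -0.06. Its partner Psmg4 was at 9.49 RPKM in oil and 13.4 in CCl4, and its log2 fold change of 0.50 (0.27 to 0.73) was the highest of the proteasome genes proper. The 2 transcripts listed for Psmg4 gave 0.50 and 0.52. Of the base chaperones, Psmd5 was at -0.29 (-0.57 to -0.03), Psmd9 at -0.14 (-0.41 to 0.14) and Psmd10, also known as gankyrin, at 0.11 (-0.18 to 0.40). The genes matched only by name were Psmc3ip, at 1.38 RPKM in oil and 1.99 in CCl4 (0.49, from 0.10 to 0.95), and Psme3ip1, at 9.39 RPKM in oil and 11.1 in CCl4 (0.24, from 0.03 to 0.45).

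The scaling of the libraries sets where 0 lies in these values, but hardly the distance of the groups from each other. With the libraries scaled to the median gene, all 31 constitutive subunits were still below 0, as were 50% of all genes, and their median was -0.71. With scaling to the summed mRNA RPKM, 27 of 31 were below 0, as were 22.5% of all genes, their median was -0.20, and Psmd8, Psmd3, Psmc3 and Psmd7 were above it. A common factor does not move the distance to the other genes. The median of the constitutive subunits was -0.71 relative to that of all genes, and -0.53 relative to that of genes averaging 10 RPKM or more. As a share of the summed mRNA RPKM, the constitutive subunits made up 0.325% in oil and 0.287% in CCl4, and the immunoproteasome genes 0.0183% and 0.0267%.

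**Figure D4:**
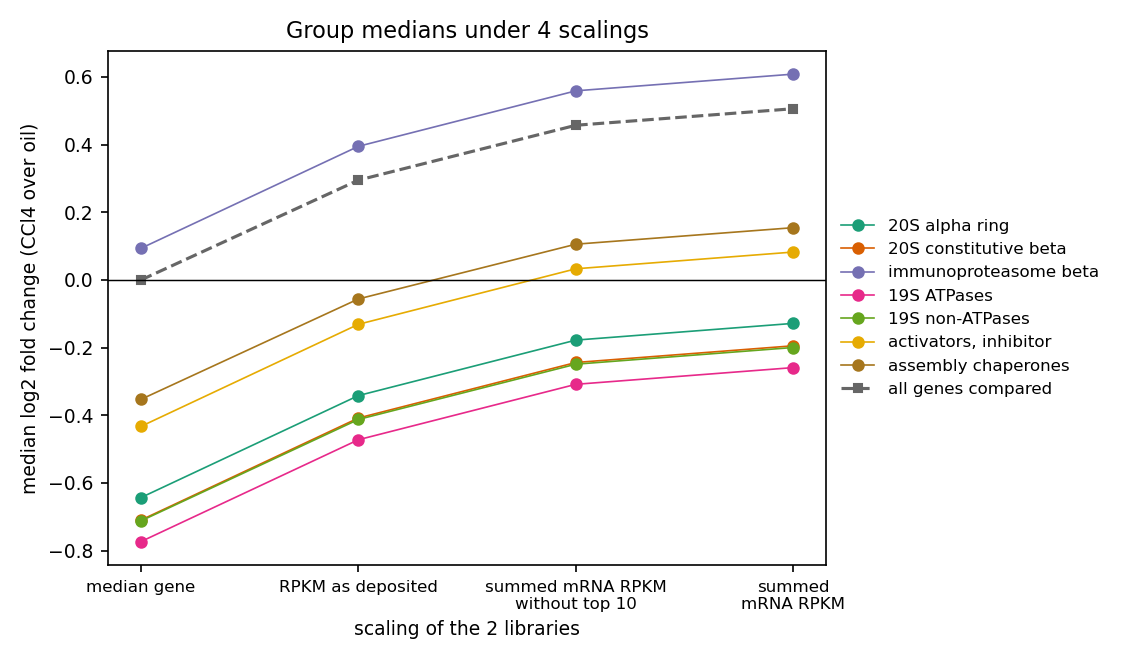
Median log2 fold change of each group of members (CCl4 over oil) under 4 scalings of the 2 libraries, with the median of all genes compared as gray squares. Lines join the same group and carry no order of the scalings. The 4 constitutive groups stay below 0 and below all genes in each scaling, the immunoproteasome group stays above 0 and just above all genes, and the activators and the chaperones cross 0.

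Genes that work with the proteasome were split. Of 27 partner genes, 25 could be compared. Of these, 16 were lower and 9 higher in CCl4, with a median of -0.13, beside 32.4% of all genes below 0 and a median of 0.30, whereas 9 were lower when scaled to the summed mRNA RPKM (22.5% of all genes) and 21 when scaled to the median gene (50% of all genes). Adrm1, a ubiquitin receptor of the 19S particle, was at 38.2 RPKM in oil and 25.2 in CCl4 (-0.60). Pomp, the maturation factor of the core, was at 83.1 RPKM in oil and 58.8 in CCl4 (-0.50). The shuttle factor Rad23b, which carries ubiquitylated proteins to the particle, was at 38.7 RPKM in oil and 23.3 in CCl4, and its -0.73 was the lowest of the list. The highest was Ubqln2, another shuttle factor, at 2.24 RPKM in oil and 4.29 in CCl4 (0.90, from 0.46 to 1.43). Ddi2, the protease that activates the proteasome transcription factor Nfe2l1, was at 42.6 RPKM in oil and 26.9 in CCl4 (-0.66). Nfe2l1 itself was at 22.5 RPKM in oil and 26.3 in CCl4 (0.23, from 0.09 to 0.36). Nfe2l2, which drives antioxidant genes, was at 16.4 RPKM in oil and 28.4 in CCl4 (0.79). Vcp, the segregase that pulls proteins out of complexes for degradation, was at 63.8 RPKM in oil and 48.9 in CCl4 (-0.38). Sem1, the smallest 19S subunit, was at 79.8 RPKM in oil and 98.2 in CCl4 (0.30), and neither it nor Nfe2l1 was higher when scaled to the median gene. Txnl1, a thioredoxin bound to the 19S particle, was at 20.7 in oil and 13.5 in CCl4 (-0.61). Akirin2, which brings the proteasome into the nucleus, was at 9.34 RPKM in oil and 14.0 in CCl4 (0.58).

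Of the 6 ubiquitin supply genes, 5 had more RPKM in CCl4, where 67.6% of all genes did, and when scaled to the median gene only Ubb and Rps27a were higher. The median of the list, 0.23, was below the 0.30 of all genes. The polyubiquitin gene Ubb was at 385 RPKM in oil and 537 in CCl4 (0.48). Rps27a, a fusion of ubiquitin with a ribosomal protein, was at 98.5 RPKM in oil and 147 in CCl4 (0.58). Uba1, the main activating enzyme, was at 36.4 RPKM in oil and 36.6 in CCl4 (0.01). None of these 6 reached 1.5-fold on the deposited scale, a size that 31.5% of all genes reached upward and 12.0% downward. Scaling to the summed mRNA RPKM adds about 0.21 to a value, and Ubb and Rps27a would then reach 1.5-fold.

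Genes of MHC class I antigen processing, which use the peptides that the immunoproteasome makes, had a median of 0.04 over 11 genes, with 7 higher and 4 lower (4 and 7 when scaled to the median gene). Of all genes 67.6% were higher, with a median of 0.30, so the list did not stand above them. The peptide transporter genes were close to Psmb8 and Psmb9, but not to Psmb10 (0.14). Tap1 was at 12.7 RPKM in oil and 18.0 in CCl4 (0.50) and Tap2 at 13.9 in oil and 19 in CCl4 (0.45). Both were higher in each scaling. Tapbp, which bridges the transporter and the class I molecule, was at 39.6 RPKM in oil and 63.4 in CCl4 (0.68). The class I heavy chains differed in direction, H2-K1 from 627 RPKM in oil to 515 in CCl4 (-0.28) and H2-D1 from 449 to 607 (0.44), and these near-identical genes can share reads. B2m was at 666 RPKM in oil and 670 in CCl4 (0.01).

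Of 12 genes of the interferon pathway, 8 were higher and 4 lower (6 and 6 when scaled to the median gene), a share of higher genes close to the 67.6% of all genes, and their median of 0.34 was close to the 0.30 of all genes. At 1.5-fold on the deposited scale, 6 of 12 were higher and none was lower, against 31.5% and 12.0% of all genes. Among the 6 were the kinases Jak1 (0.62) and Jak2 (0.70) that act at the receptor. Scaling to the median gene takes about 0.30 off a value. Jak1, Jak2 and Irf1 would then fall short of 1.5-fold, and Nlrc5 would be lower by it. Irf1, a factor known to bind the promoters of immunoproteasome genes, was at 18.4 RPKM in oil and 28.0 in CCl4 (0.61). The interferon-gamma receptor chains Ifngr1 and Ifngr2 were at 1.06 and 0.94. Irf8, a factor of macrophages and dendritic cells, was at 19.9 RPKM in oil and 41.3 in CCl4 (1.05). Stat2, which transmits the interferon signal, was at 11.8 RPKM in oil and 11.9 in CCl4 (0.01). Nlrc5, a driver of class I genes, was at 5.16 RPKM in oil and 3.84 in CCl4 (-0.42), and Irf9 at 17.3 and 14.4 (-0.27). Ifngr1 and Irf8 were past a log2 fold change of 1 on the deposited scale, a size that 14.3% of all genes reached upward. Scaled to the median gene, neither would be past 1. The Kupffer cell and macrophage markers had a median of 1.13 on the deposited scale, with 8 of the 9 compared higher and Clec4f lower. The part of these cells in the values of this list was not tested.

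**Figure D5:**
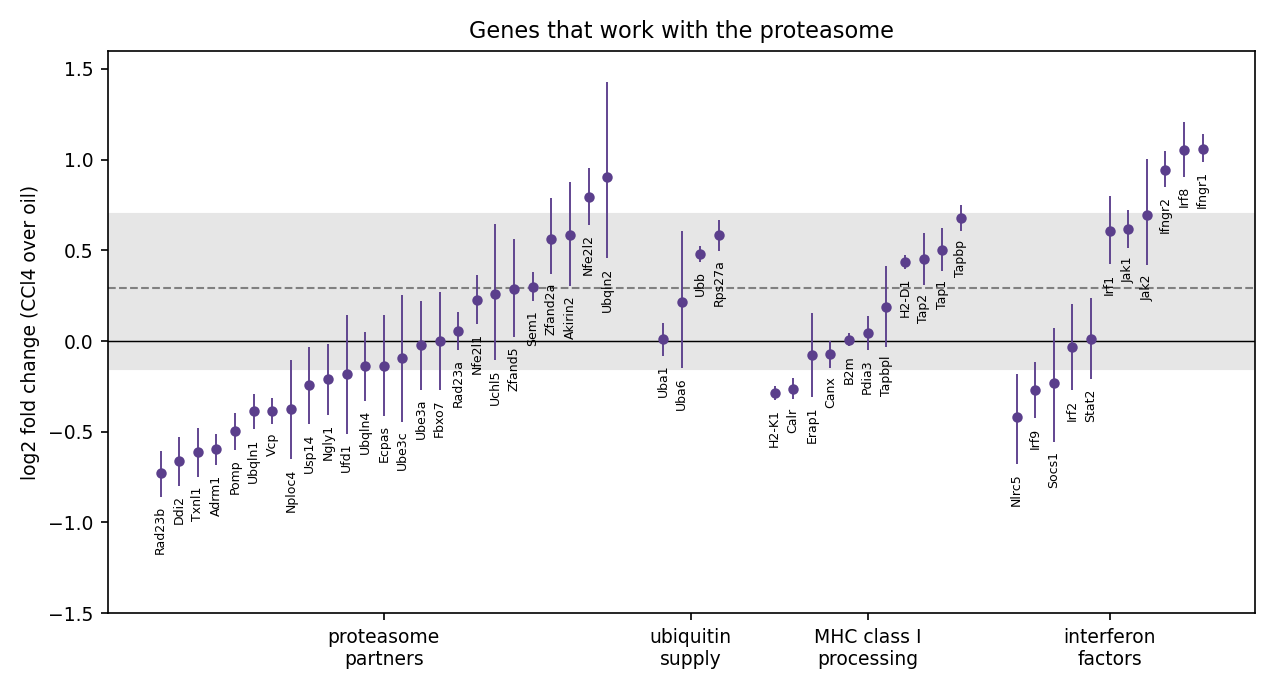
Log2 fold change (CCl4 over oil, 0.1 RPKM added) of genes that work with the proteasome, in 4 lists without the few genes not reported. Vertical lines are 95% intervals for counting error only, the gray band holds the middle 50% of all genes compared and the dashed line their median. Adrm1, Pomp, Rad23b and Ddi2 lie low like the constitutive subunits, while Tap1, Tap2 and Tapbp lie at or above the median of all genes.

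Promoter windows, from 250 bases before to 50 bases after the start, were found for 42 of the 50 members in a table of 32851 windows. They were searched on both strands for 4 motifs, and a base could belong to more than 1 match. TGACNNNGC, the core of the element that Nfe2l1 and Nfe2l2 recognize, was found in 6 of 42 members (14.3%) and in 12.4% of all windows. Psmb5, Psmb6, Psmc6 and Psmd12 hold it among the constitutive subunits, and in Psmb5 it begins 47 bases before the start as TGACGTCGC. GAAA, any 2 bases and GAAA again, a core of the interferon-stimulated response element, were found in 5 members (11.9%), Psmb3, Psmd4, Psmd9, Psme1 and Psmg4, and in 3.4% of all windows. TTCNNNGAA, the gamma-activated site that STAT dimers bind, was found in 3 members (7.1%), Psmb8, Psmd2 and Psmg1, and in 8.3% of all windows. In Psmb8 it is TTCCCAGAA, 97 bases before the start. CCAAT was found in 16 members (38.1%) and in 37.4% of all windows, and Psmb9 holds it on the opposite strand, as ATTGG, 8 bases before the start. Psmb10 holds none of the 4. A match of letters is not a binding site.

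Psmb9 and Tap1 are read in opposite directions on chromosome 17 from starts 226 bases apart, so the Psmb9 stretch shown is the whole space between them. Their RNAs had similar fold changes, 0.48 for Psmb9 and 0.50 for Tap1, whereas their levels differed, with Psmb9 at 17.2 and Tap1 at 12.7 RPKM in oil, and at 24.1 and 18.0 RPKM in CCl4.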

How the data were processed

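Libraries were made from total hepatocyte RNA, 1 per condition. The submitters' processing notes name CASAVA 1.4, TopHat2 and the build mm10. The counting program and annotation version are not given in the sources used here. The authors deposited RPKM for 27457 mRNA transcripts and listed values under 1 as 0. The authors' own fold changes, p-values and q-values stand beside them and were not used. Deposited read counts of new lncRNAs served only to check the recovery of reads.

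Symbols came from a RefSeq table of GRCm38.p6 that held 27049 of the transcript identifiers. The members, groups and other lists were chosen with earlier results of these data known. By the naming rule every member and every gene of the lists could be named. The members of largest and smallest fold in each group were described, most of them with RPKM, fold change and interval. Markers of cycling cells (9 of 9 compared were higher, with 45.4 RPKM in oil and 121 in CCl4 in sum) were listed too. Paaf1 and Cd68 were not analysed here, and a few other genes counted in the lists are not reported here by name. Log2 fold changes used a pseudocount of 0.1 RPKM, and a call a log2 of at least 1.

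The library totals were those giving whole reads (within 0.05) in 212 of 218 (oil) and 226 of 233 (CCl4) RNAs shorter than 400 bases. Reads of a gene were taken at the shortest length from 300 to 30000 bases giving whole reads in both libraries. They are lower bounds, and this recovery was chosen after seeing the data. On 1397 new lncRNAs they equalled the deposited counts in 48.2% and exceeded them in 0. That check took the library totals from the deposited counts and began at a shorter length than for the genes. The shortest length then gives no more reads than the true one, so the 0 was fixed in advance. Intervals of a fold are exact (Clopper-Pearson) at 95%, those of a ratio of pairs normal approximations, and both cover counting error only. The functions were tested on simulated data. Alternatives were the pseudocount, scaling, transcript choice, fold and filter. Computation used pandas 2.3.3, numpy 2.4.6 and scipy 1.17.1 under Python 3.11.15, and plots matplotlib 3.10.9.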

Additional observations from a re-analysis of the deposited data

How the results depend on the processing

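The values rest on 1 library per condition, so no alternative measures the spread between mice. Genes near 1 RPKM are limited by depth and by the listing of lower values as 0. No paired analysis was possible because each condition has 1 library. Scaling to the median gene moved the group medians to -0.64 (20S alpha), -0.71 (constitutive beta), 0.0936 (immunoproteasome), -0.77 (19S ATPases), -0.71 (19S non-ATPases), -0.43 (activators and inhibitor) and -0.35 (chaperones). Scaling to the summed mRNA RPKM gave -0.13, -0.19, 0.61, -0.26, -0.20, 0.0825 and 0.15 in that order, so the last 2 turned sign. The same without the 10 most abundant mRNAs gave -0.18, -0.24, 0.56, -0.31, -0.25, 0.033 and 0.11, with the same 2 turning sign. These shifts follow from the factor applied to all genes, and the cause of the offset between libraries was not tested. A pseudocount of 0 or 1 RPKM, or summing the transcripts of a gene, moved no member beyond its counting interval. The ratios of the 3 catalytic pairs moved no further than from 0.84 to 0.82, from 0.78 to 0.75 and from 0.77 to 0.75 (log2), with 1 RPKM added. Leaving out the 3 genes with 2 listed transcripts, an alternative added after seeing the data, moved the chaperone median from -0.06 to -0.14 and the activator median from -0.13 to -0.12, with 37 of 45 members below 0 in place of 38 of 48, and left the other group medians as they were. At 1.5-fold, 5 members were lower in place of 0 on the deposited scale. Scaled to the summed mRNA RPKM none was lower by that fold, and Psmb8, Psmb9, Psmg4 and Psmc3ip were higher by it. Scaled to the median gene, the medians of the constitutive groups given above were all past it downward. Of all genes, 1527 higher and 586 lower became 854 and 1038 scaled to the median gene, 2294 and 388 scaled to the summed RPKM, 3367 and 1287 at 1.5-fold, and 188 and 75 at a log2 of 2. With genes listed in at least 1 library 2689 were higher and 747 lower, and among genes averaging 10 RPKM or more 552 and 447.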

Other observations

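The table of annotated lncRNAs lists a noncoding transcript of Psmd2 (NR_027485) at 45.6 RPKM in oil and 36.1 RPKM in CCl4. This is a log2 fold change of -0.34, the same to 2 decimals as that of the Psmd2 mRNA, and reads from exons that the transcripts share cannot be told apart.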
